A study of Homo sapiens with 6 samples.

Results

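The genes described here are 10 genes of the transforming growth factor beta (TGF-beta) pathway in PC9 cells, a human lung adenocarcinoma line with an activating EGFR deletion. They were chosen by symbol, with no threshold on their values. Earlier results of these data were known when these genes and the pathway lists below were chosen, so counts set against all genes only describe them. The 10 comprise the ligands TGFB1 and TGFB2, the receptors TGFBR1 and TGFBR2 and the SMAD proteins SMAD2, SMAD3, SMAD4 and SMAD7. The SMAD corepressor SKIL and the secreted target TGFBI complete the list. All 10 were among the 16306 genes of the deposited gene table and among the 12620 that passed the filter on low counts. RNA-seq compared 3 samples carrying a control shRNA (sh-NC, replicates 1, 2 and 3) with 3 carrying an shRNA against the splicing regulator RBM10 (shRBM10, libraries A, B and C). The labels name no treatment other than the shRNA. They do not say which RBM10 shRNA was used or whether the replicates are separate cultures, so that p-values measure only the spread between these samples. Only library A carries a name that matches a sample title of the shRBM10 group, while B and C are 2 columns whose names are like it but for the last letter. The extraction protocol mentions retinas although the samples are labelled PC9, and it names 2 library kits without tying either to a library.

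TGF-beta is secreted in a latent complex and, once released, brings the type II receptor TGFBR2 together with the type I receptor TGFBR1. TGFBR1 then phosphorylates the receptor-regulated SMAD2 and SMAD3, which bind the common partner SMAD4, enter the nucleus and control transcription. SMAD7 and SKIL are induced by the pathway and act back on it, SMAD7 at the receptor and SKIL at the SMAD complex on DNA. In lung epithelial tumours the pathway is known both for growth arrest and for epithelial-mesenchymal transition and invasion.

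Total estimated counts on genes were 18181902 to 18864241 in sh-NC against 16606401 to 18526158 in shRBM10. RBM10, the target of the shRNA, had 1431, 1183 and 1469 normalized counts in sh-NC against 537, 515 and 672 in shRBM10, without overlap. A normalized count here is a count divided by its library's effective size (TMM, a scaling that limits the weight of a few abundant genes) and multiplied by the mean effective size. The log2 fold change of RBM10, shRBM10 against sh-NC, was -1.24 ± 0.23, where ± on a log2 fold change is its standard error (quasi-likelihood test in edgeR, Benjamini-Hochberg adjusted p = 0.10), -1.42 without sh-NC replicate 2 (adjusted p = 0.0487 in edgeR) and -0.95 with the GC trend described next removed (adjusted p = 0.103 in edgeR). The libraries did not scatter evenly: sh-NC replicate 2 had a TMM factor of 0.738 against 1.03 to 1.08 in the others, and levels followed the GC content of the genes. The fitted trend at 40% minus 60% GC content was -0.30, -0.81 and -0.33 on the log2 scale in sh-NC replicates 1 to 3, against 1.11, 0.68 and -0.35 in libraries A, B and C. Log2 fold changes of genes are therefore also given with this trend removed and without sh-NC replicate 2. Of the marker genes, 7 of 8 of the lung epithelial list were kept and summed to 33100 to 41000 CPM (counts scaled to the library total) in sh-NC against 26700 to 37200 in shRBM10, with NKX2-1 at no more than 2 counts. Fibroblast markers summed to 2.36 to 7.35 CPM in sh-NC against 6.38 to 11.4 in shRBM10, endothelial markers to 4.01 to 11.0 and 2.89 to 3.92, leukocyte markers to 1.43 to 1.64 and 1.47 to 2.17, and retinal markers to 0.385 to 0.742 and 0.979 to 2.17. Single genes held most of 3 of these sums. COL1A1 had 28 to 113 counts in sh-NC against 97 to 185 in shRBM10, with COL1A2 and COL3A1 at no more than 2. CDH5 had 61 to 177 against 40 to 62, with PECAM1, KDR and CLDN5 at no more than 3. PDE6A, of the retinal list, had 7 to 13 against 17 to 33. The part of these low levels in the results was not tested.

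Levels between genes were compared per length, in the TPM of the deposited table. These were read for the 3 sh-NC libraries and library A, whose column names match a sample title. TGFBI, an extracellular matrix protein named for its induction by TGF-beta, was the most abundant with 143, 61.1 and 148 TPM in sh-NC. TGFB1 followed with 59.0, 31.8 and 52.6 TPM, and SMAD3 with 23.4, 6.28 and 23.9 TPM. These 3 genes did not overlap one another across the sh-NC libraries. SMAD7 (8.29 TPM on average), TGFBR2 (6.53), TGFB2 (6.20), SKIL (5.00), SMAD2 (3.14), TGFBR1 (2.86) and SMAD4 (2.38) came next, and from SMAD3 downward no gene was separated from its neighbour in the order. TPM is not corrected for library composition, and sh-NC replicate 2 held the lowest of the 3 sh-NC values for all 10 genes. In library A, TGFBR1 stood at 15.2 TPM and SKIL at 19.8 TPM, above TGFB2 at 12.6 TPM and TGFBR2 at 14.0 TPM, whereas TGFBI stood at 70.0 TPM and TGFB1 at 42.8 TPM. This order is that of a single library, the one with the largest fitted GC trend (1.11 at 40% minus 60% GC content). It was not read for libraries B and C.

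**Figure D1:**
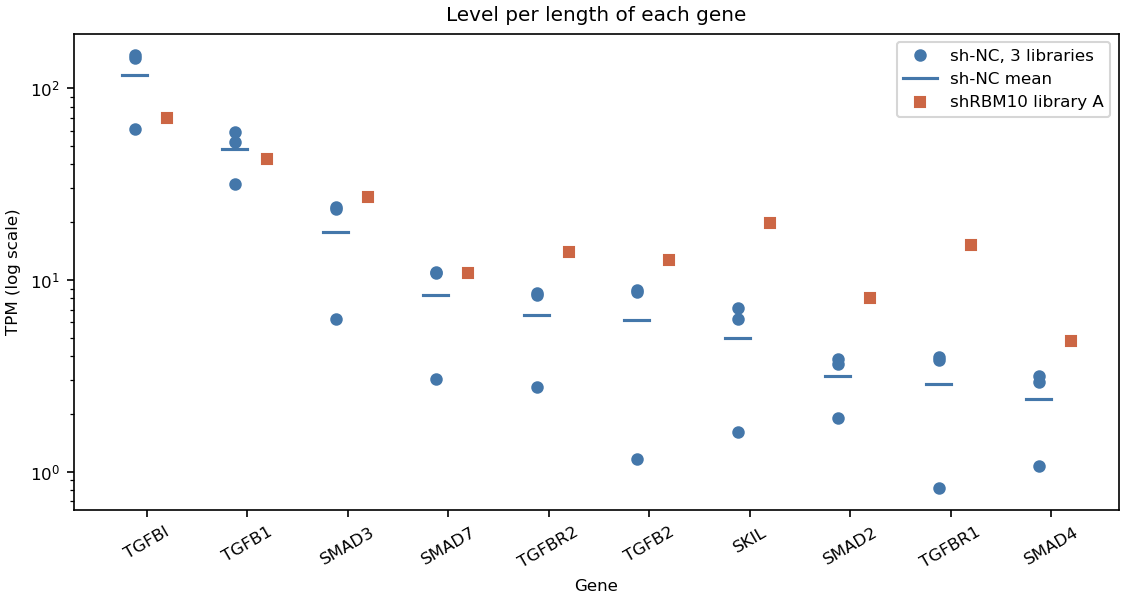
Level of the 10 TGF-beta pathway genes in TPM on a log axis, with circles for the 3 sh-NC libraries, a line for their mean and a square for shRBM10 library A. TGFBI, TGFB1 and SMAD3 stand in separate ranges in sh-NC, and the other 7 genes overlap their neighbours.

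None of the 10 genes was called differentially expressed by edgeR at an adjusted p under 0.05 with an absolute log2 fold change over 1, a bar that 2 of the 12620 genes (0.0158%) passed. At an unadjusted p under 0.05, 4 of the 10 genes were higher in shRBM10 (TGFBR1, SKIL, TGFBR2 and SMAD2) against 15.7% of all genes, and 1 was lower (TGFBI) against 8.60%. With the fold-change limit added, 2 were higher, SKIL and TGFBR1, against 10.1% of all genes, and 0 were lower against 1.53%. The 3 libraries of each group did not overlap for 4 genes higher in shRBM10 (SKIL, TGFBR2, SMAD2 and SMAD4), where 13.8% of all genes did so, and for 1 lower (TGFBI), where 16.2% did. For the 10 genes together the median log2 fold change was 0.56 against 0.03 for all genes tested. DESeq2's Wald test called 2 of the 10, SKIL and TGFBR1, against 4.72% of the genes it gave an adjusted p. With the GC trend removed, edgeR called 0 of the 10 against 0.0238% of all genes, 3 were higher at an unadjusted p under 0.05 (SKIL, TGFBR1 and TGFBR2) against 8.49%, and 1 was lower (TGFBI) against 9.66%; with the fold-change limit 0 were higher (2.37% of all genes) and 0 lower (2.23%). Groups did not overlap for 6 genes higher in shRBM10 (SKIL, TGFBR1, TGFBR2, SMAD3, SMAD7 and TGFB1) against 14.3% of all genes, and for TGFBI, lower, against 16.0%. The median was then 0.30. It was 0.27 without sh-NC replicate 2 and with the trend kept, where 2 genes were higher and 1 was lower at an unadjusted p under 0.05 (11.6% and 12.7% of all genes). In edgeR 0 of the 10 genes were called without sh-NC replicate 2, against 0.180% of all genes, and 0 with the GC trend also removed, against 2.06%. In either direction, 5 of the 10 genes had an unadjusted p under 0.05 in edgeR against 24.3% of all genes, and this count was 3 without any 1 sh-NC library and 2 without library A or B. With the GC trend removed it was 4 against 18.2% of all genes, and 0 without library A or B.

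**Figure D2:**
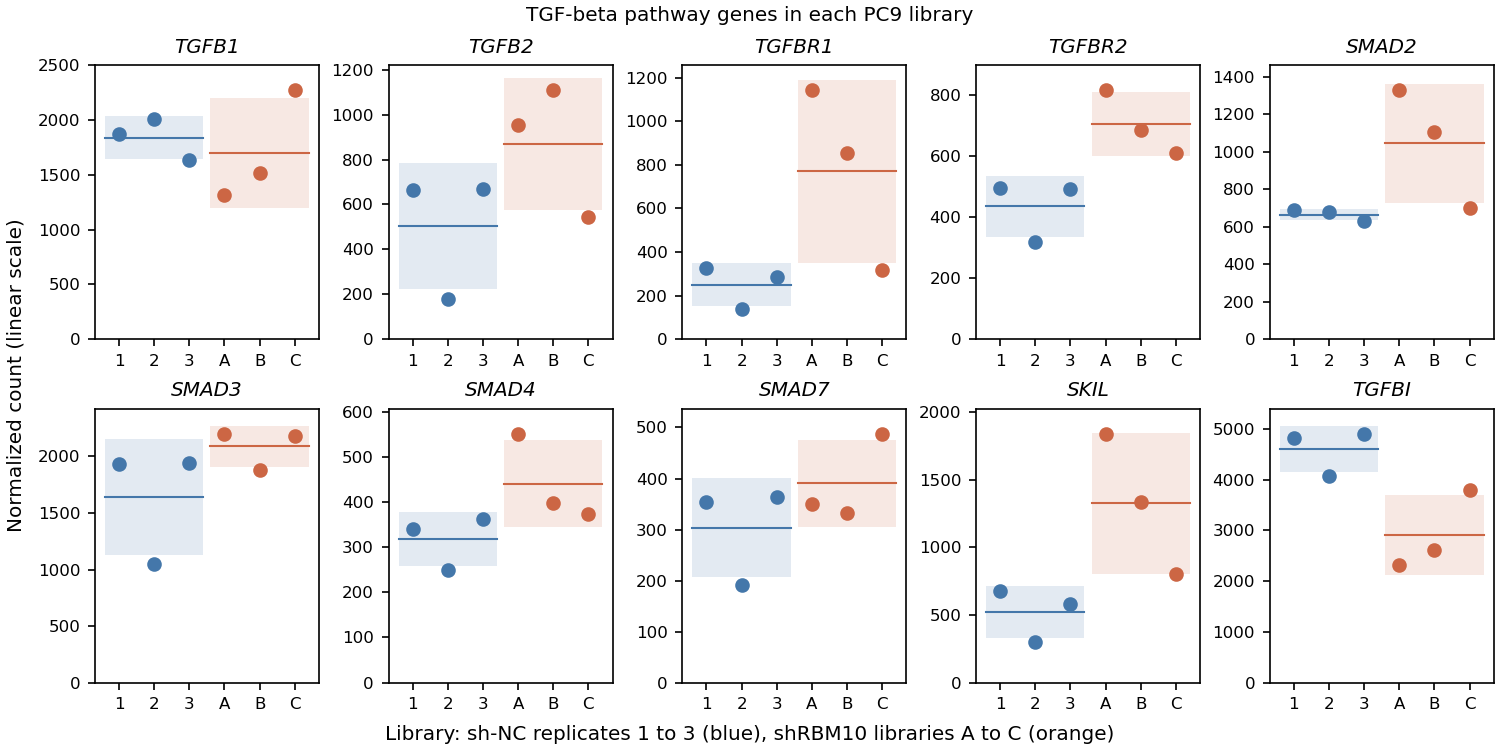
Normalized counts of the 10 genes in each library on linear axes that start at 0; lines are group means and bands are 1 SD of 3 libraries. For SKIL, TGFBR2, SMAD2 and SMAD4 all shRBM10 libraries lie above all sh-NC libraries, and for TGFBI all lie below.

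TGFB1 encodes the ligand that gives the pathway its name. It lies on chromosome 19 (41301587 to 41353911 on the minus strand of GRCh38), where its exons share 215 bases with HNRNPUL1 on the other strand. Its normalized counts were 1877, 2013 and 1631 in sh-NC against 1320, 1517 and 2273 in shRBM10. Libraries A and B lay below the sh-NC range and library C above it. Its log2 fold change was -0.11 ± 0.26 (edgeR, adjusted p = 0.791), -0.12 without sh-NC replicate 2, 0.04 without library A and -0.42 without library C. With the GC trend removed it was 0.21, with levels of 1488 to 1709 in sh-NC against 1756 to 2077 in shRBM10 that did not overlap, and an adjusted p of 0.448 in edgeR. The direction of TGFB1 therefore turned with the handling of GC content.

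TGFB2 encodes another ligand of the same receptors and lies on chromosome 1 (218346235 to 218444619, plus strand). It had 664, 178 and 668 normalized counts in sh-NC against 956, 1109 and 543 in shRBM10, so that sh-NC replicate 2 stood far below the other sh-NC libraries and library C lay within the sh-NC range. TGFB2 had a log2 fold change of 0.78 ± 0.47 (edgeR, adjusted p = 0.298), and it was 0.30 without sh-NC replicate 2 and 0.13 with the GC trend removed. Of the exonic bases of TGFB2, 26.6% are shared with the annotated transcript TGFB2-OT1 on the same strand, which is not listed in the gene table.

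TGFBR1, the type I receptor kinase (chromosome 9, 99104038 to 99154192, plus strand), showed the highest log2 fold change of the 10 genes. It had 325, 140 and 286 normalized counts in sh-NC against 1142, 853 and 316 in shRBM10. Libraries A and B were above all sh-NC libraries, and library C stood between sh-NC replicates 1 and 3. This gave a log2 fold change of 1.62 ± 0.47 (edgeR, adjusted p = 0.153 and 0.0209 in DESeq2). It was 1.24 without sh-NC replicate 2, 1.92 without library C, and 0.84 with the GC trend removed (unadjusted p = 0.0243 in edgeR). After that removal the levels were 370.3, 215 and 333 in sh-NC against 663, 612 and 370.4 in shRBM10, so that library C lay only just above sh-NC replicate 1. In bulk RNA, more cells that express a gene and more RNA per cell cannot be told apart.

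TGFBR2, the type II receptor that binds the ligand (chromosome 3, 30606502 to 30694142, plus strand), had 494, 319 and 491 normalized counts in sh-NC against 815, 686 and 608 in shRBM10. Every shRBM10 library lay above every sh-NC library (exact permutation test, two-sided, p = 0.1, the smallest that 3 against 3 allow). The means were 435 ± 100.2 (SD, n = 3) and 703 ± 104.6 (SD, n = 3). TGFBR2 had a log2 fold change of 0.69 ± 0.27 (edgeR, adjusted p = 0.176), 0.43 without sh-NC replicate 2 and 0.55 with the GC trend removed. TGFBR2 differed less between the fits with and without the GC trend than TGFBR1 did, with a GC content of 47.4% in its longest transcript against 39.0% in that of TGFBR1.

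SMAD2 and SMAD3 are the receptor-regulated SMADs that TGFBR1 phosphorylates. SMAD2 (chromosome 18, 47808957 to 47931146, minus strand) had 687, 678 and 630 normalized counts in sh-NC against 1328, 1106 and 701 in shRBM10. Library C stood just above the sh-NC range, and A and B were well above it. Its log2 fold change was 0.65 ± 0.27 (edgeR, adjusted p = 0.189), and it was 0.58 without sh-NC replicate 2 and -0.06 with the GC trend removed, where the groups overlapped. SMAD3 (chromosome 15, 67063763 to 67195195, plus strand) had 1933, 1048 and 1941 normalized counts in sh-NC against 2201, 1881 and 2182 in shRBM10. Only sh-NC replicate 2 lay far from the rest. The log2 fold change of SMAD3 was 0.35 ± 0.27 (edgeR, adjusted p = 0.416), and it was 0.03 without sh-NC replicate 2 and 0.40 with the GC trend removed.

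SMAD4, the partner that SMAD2 and SMAD3 share (chromosome 18, 51028394 to 51085045, plus strand), had 340, 249 and 362 normalized counts in sh-NC against 551, 399 and 373 in shRBM10. The groups did not overlap, with library C and sh-NC replicate 3 close to each other. SMAD4 had a log2 fold change of 0.47 ± 0.28 (edgeR, adjusted p = 0.295), 0.24 without sh-NC replicate 2 and -0.12 with the GC trend removed. SMAD7, the inhibitory SMAD (chromosome 18, 48919853 to 48952052, minus strand), had 355, 192 and 365 normalized counts in sh-NC against 350, 333 and 488 in shRBM10, and the groups overlapped. Its log2 fold change was 0.36 ± 0.32 (edgeR, adjusted p = 0.473), 0.04 without sh-NC replicate 2, 0.10 without library C and 0.61 with the GC trend removed (unadjusted p = 0.0702 in edgeR). SMAD2, SMAD7 and SMAD4 lie within 3.28 megabases of chromosome 18, and the other 7 genes are spread over 6 chromosomes.

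SKIL, which encodes the corepressor SnoN, had the smallest p of the 10 genes. It lies on chromosome 3 (170357678 to 170396835, plus strand) and its longest transcript has a GC content of 33.4%. It had 674, 304 and 582 normalized counts in sh-NC against 1840, 1335 and 801 in shRBM10. All shRBM10 libraries lay above the sh-NC range, with library C nearest to it. The means were 520 ± 193 (SD, n = 3) and 1325 ± 519 (SD, n = 3). The log2 fold change was 1.35 ± 0.37 (edgeR, adjusted p = 0.153 and 0.0271 in DESeq2), a fold of 2.54, and SKIL ranked 409 among the 12620 genes by p. It was 0.99 without sh-NC replicate 2 and 0.69 with the GC trend removed (unadjusted p = 0.0225 in edgeR), and the levels of 769, 427 and 687 in sh-NC against 1148, 974 and 929 in shRBM10 then still did not overlap.

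TGFBI is the target gene of the set and the 1 gene with a lower level in shRBM10 at an unadjusted p under 0.05. It lies on chromosome 5 (136028895 to 136063818, plus strand). It had 4823, 4071 and 4905 normalized counts in sh-NC against 2312, 2617 and 3797 in shRBM10. Every shRBM10 library lay below every sh-NC library, and library C again stood nearest to sh-NC. The means were 4600 ± 459.8 (SD, n = 3) and 2908 ± 784 (SD, n = 3). The log2 fold change was -0.66 ± 0.25 (edgeR, adjusted p = 0.176), -0.82 without sh-NC replicate 2 and -0.61 with the GC trend removed (unadjusted p = 0.0223 in edgeR). Without library C it was -0.95 (adjusted p = 0.0614 in edgeR).

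**Figure D3:**
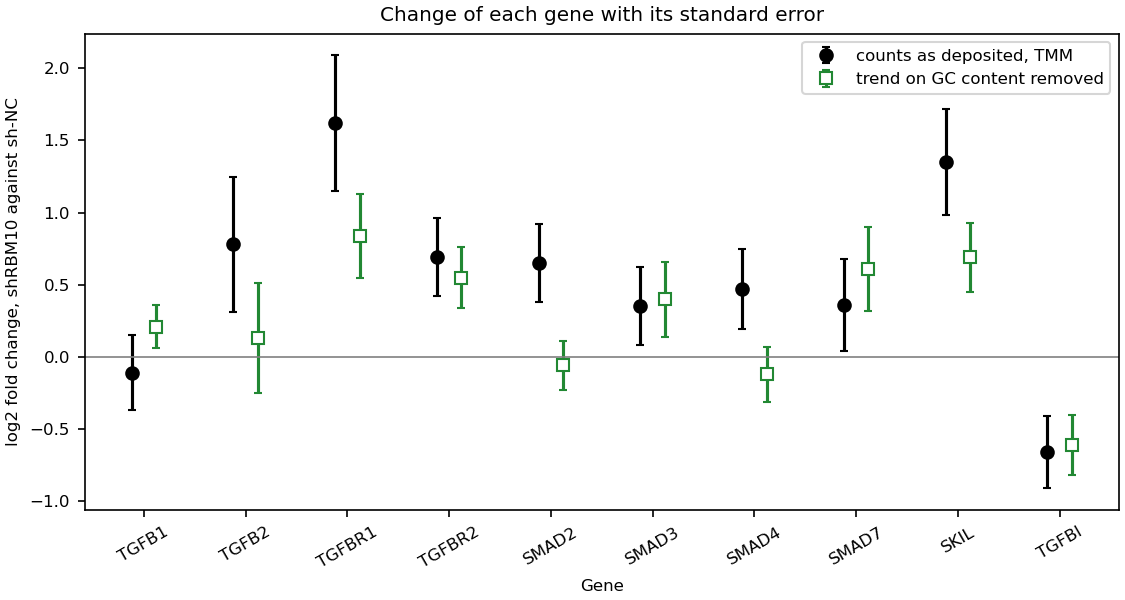
Log2 fold change of the 10 genes, shRBM10 against sh-NC, with 1 standard error, for counts as deposited (filled circles) and after removal of the GC trend (open squares). TGFBR1 and SKIL move from 1.62 and 1.35 to 0.84 and 0.69, SMAD2 and SMAD4 move to 0 or just below, TGFBR2 moves from 0.69 to 0.55, and TGFBI from -0.66 to -0.61.

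SKIL, TGFBR2 and TGFBI kept groups that did not overlap both with and without the GC trend. Of all genes, 21.2% did so in the same direction in both fits, with higher and lower genes counted together. The sequence before the earliest annotated start of SKIL, TGFBR2 and TGFBI is shown because these 3 genes stayed separated in both fits. The windows begin 250 bases before the RefSeq start on GRCh38.p14 and end before any annotated transcript of RefSeq or GENCODE. They run along the plus strand at chr3:170357465-170357677 for SKIL, chr3:30606106-30606355 for TGFBR2 and chr5:136028738-136028894 for TGFBI, and capitals mark the match to the SMAD-binding motif.
SKIL: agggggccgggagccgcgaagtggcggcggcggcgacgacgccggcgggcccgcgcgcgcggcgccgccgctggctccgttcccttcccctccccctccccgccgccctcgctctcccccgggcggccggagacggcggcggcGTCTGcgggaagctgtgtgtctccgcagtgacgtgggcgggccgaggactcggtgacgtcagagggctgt
TGFBR2: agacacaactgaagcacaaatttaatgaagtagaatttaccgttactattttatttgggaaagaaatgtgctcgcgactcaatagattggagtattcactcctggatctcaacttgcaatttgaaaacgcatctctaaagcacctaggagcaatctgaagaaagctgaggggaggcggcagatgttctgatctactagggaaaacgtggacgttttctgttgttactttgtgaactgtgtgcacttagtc
TGFBI: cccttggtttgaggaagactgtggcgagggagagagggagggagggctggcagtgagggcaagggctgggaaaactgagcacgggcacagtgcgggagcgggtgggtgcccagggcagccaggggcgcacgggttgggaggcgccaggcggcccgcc
The windows were searched on both strands for CAGAC, the short SMAD-binding motif, for its palindromic form GTCTAGAC and for TGANTCA, the AP-1 motif; no motif of the 3 contains another. SKIL held 1 match to CAGAC, on the minus strand (GTCTG as printed) and 107 bases before the RefSeq start. CAGAC occurs in 34.0% of the 35116 RefSeq promoters cut to the same window of 213 bases. TGFBR2 and TGFBI held 0 matches to it, where 38.0% and 27.0% of promoters of their window lengths held 1 or more. The 3 windows held 0 matches to GTCTAGAC (0.122% to 0.182% of promoters) and to TGANTCA (4.01% to 6.57%). A match or its absence says nothing about binding. The windows lie before the earliest annotated start, which need not be the start of the form expressed most. In GENCODE, NM_005414, the main SKIL form in these data, starts at 170359623, well after the SKIL window. NM_003242 of TGFBR2 starts at 30606502, also after the RefSeq start used for its window. The windows had GC contents of 79.8%, 40.8% and 71.3% for SKIL, TGFBR2 and TGFBI.

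The changes of the 10 genes were set against the GC content of their longest transcripts. The 5 genes under 45% GC (SKIL, TGFB2, TGFBR1, SMAD2 and SMAD4) had a median log2 fold change of 0.78, where the 4593 genes under 45% had 0.65. After the trend was removed, the medians were 0.13 and 0.02. The 5 genes at or over 45% (TGFBR2, SMAD3, TGFBI, SMAD7 and TGFB1) had a median of 0.35, where the 7966 other genes had -0.20, and 0.40 and -0.03 with the trend removed. With the trend removed, TGFBR1 (0.84), SKIL (0.69), SMAD7 (0.61), TGFBR2 (0.55), SMAD3 (0.40) and TGFB1 (0.21) stood above these medians, TGFBI (-0.61) below them, and TGFB2 (0.13), SMAD2 (-0.06) and SMAD4 (-0.12) nearest to them. With sh-NC replicate 2 also left out, the median of the 10 genes was 0.19. TGFBR1 was then 0.66, SKIL 0.49, TGFBR2 0.36, SMAD7 0.35, TGFB1 0.23 and SMAD3 0.14. SMAD2 was 0.09, SMAD4 -0.19, TGFB2 -0.21 and TGFBI -0.70. Whether the GC trend arose in the cells or in library preparation was not tested, and no library can be assigned to 1 of the 2 kits.

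**Figure D4:**
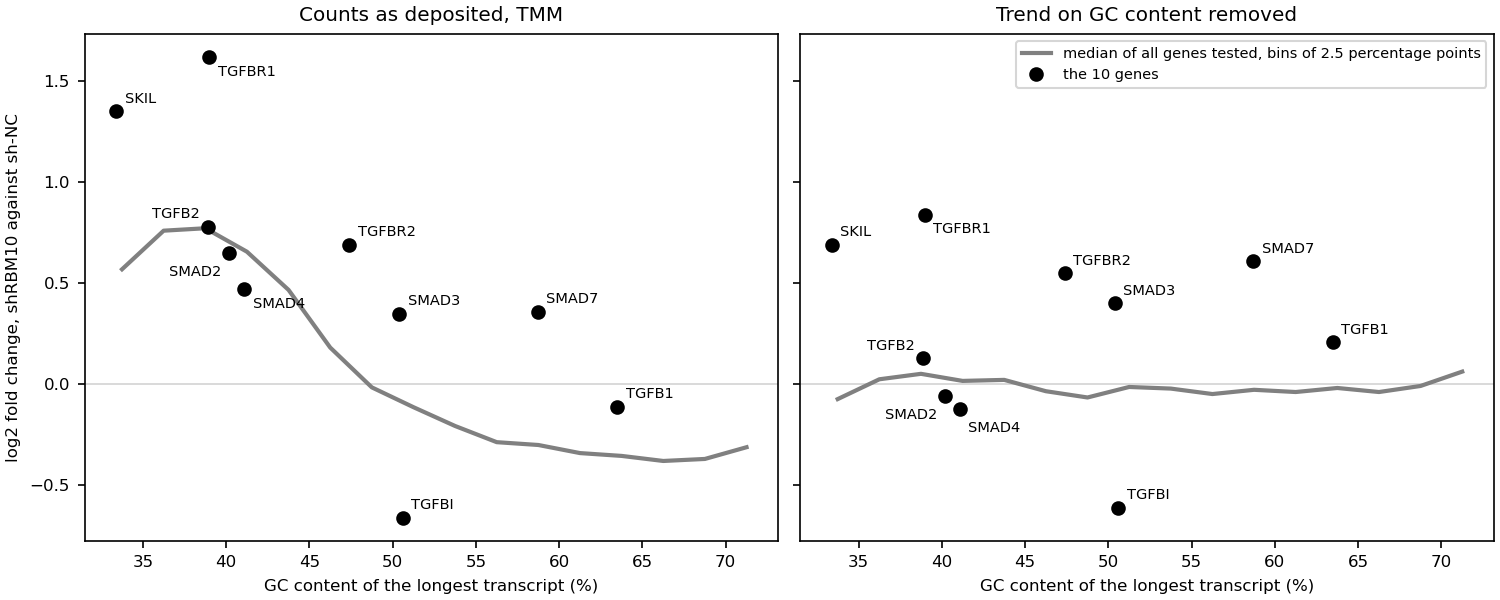
Log2 fold change, shRBM10 against sh-NC, of the 10 genes (points) against the GC content of their longest transcript in percent, before (left) and after (right) removal of the trend; the grey line is the median of all genes tested in bins of 2.5 percentage points with at least 20 genes. After removal TGFB2, SMAD2 and SMAD4 lie nearest to the line, TGFBR1, SKIL, SMAD7, TGFBR2, SMAD3 and TGFB1 above it and TGFBI below it.

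Pathway genes outside the 10 were taken from lists by role, 73 genes in all, of which 66 were tested. By edgeR 0 of the 66 were called, 13 were higher and 1 was lower in shRBM10 at an unadjusted p under 0.05 (15.7% and 8.60% of all genes), and their median log2 fold change was 0.23. With the GC trend removed, 8 were higher and 2 lower (8.49% and 9.66% of all genes), with a median of 0.18. Without sh-NC replicate 2, 10 were higher and 6 lower (11.6% and 12.7% of all genes). The counts by role that follow are read against these same shares. Counted in either direction with the trend kept, 14 passed this bar, 6 without library A and 21 without library C. DESeq2 called 4 of the 66, against 4.72% of the genes it gave an adjusted p. These were ITGB6, ITGB8, WWP1 (adjusted p = 0.00895 in DESeq2) and CDKN2B (adjusted p = 0.034 in DESeq2). Among the 6 other ligands tested, 0 passed an unadjusted p of 0.05 by edgeR in either direction, and TGFB3, the third TGF-beta ligand, was low at 10 to 35 counts.

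Of 10 genes of latency and activation tested, 4 were higher and 0 lower at an unadjusted p under 0.05 in edgeR, where 15.7% of all genes were higher, and 3 were higher and 0 lower with the GC trend removed (8.49%). Without sh-NC replicate 2, 4 were higher and 1 lower (11.6% and 12.7% of all genes). The median log2 fold change of this list was 0.33, and -0.07 without that replicate. The 4 genes higher with all libraries include the integrin subunits that release TGF-beta from its latent complex: ITGAV pairs with ITGB6 or ITGB8 on the cell surface. ITGB6 had 405, 129 and 337 normalized counts in sh-NC against 1509, 1296 and 647 in shRBM10. Its groups did not overlap, with a log2 fold change of 1.98 ± 0.45 (edgeR, adjusted p = 0.130) of 1.55 without sh-NC replicate 2 and of 1.30 with the GC trend removed. ITGB8 had 71.7, 31.5 and 62.3 normalized counts in sh-NC against 189.9, 207 and 102 in shRBM10, also without overlap (log2 fold change 1.58 ± 0.40, 1.23 without sh-NC replicate 2 and 0.87 with the trend removed). ITGAV had 299, 95.9 and 291 normalized counts in sh-NC against 852, 654 and 287 in shRBM10, and library C lay within the sh-NC range (log2 fold change 1.38 ± 0.49, 0.93 without sh-NC replicate 2 and 0.64 with the trend removed). DESeq2 called ITGB6 and ITGB8, with adjusted p of 0.00159 and 0.0149, where it called 4.72% of the genes it gave an adjusted p. For ITGAV it gave 0.0590. The fourth gene, LRRC32, which holds latent TGF-beta at the cell surface, had 0.907, 5.48 and 1.81 normalized counts in sh-NC against 25.7, 12.5 and 12.5 in shRBM10; its mean count of 9.67 is under the 50 set for naming, and it was picked out after its values were seen.

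Of the 11 other receptors tested, 3 were higher and 0 lower at an unadjusted p under 0.05 in edgeR, against 15.7% of all genes higher, and 1 was higher and 0 lower with the GC trend removed, against 8.49%. Without sh-NC replicate 2, 3 were higher and 1 lower (11.6% and 12.7% of all genes). BMPR2, the type II receptor for bone morphogenetic proteins, had 284, 101 and 258 normalized counts in sh-NC against 611, 515 and 326 in shRBM10 (log2 fold change 1.17 ± 0.41, 0.75 without sh-NC replicate 2 and 0.49 with the GC trend removed). BMPR1B, a type I partner of BMPR2, had 42.6, 35.6 and 50.5 normalized counts in sh-NC against 155, 102 and 59.6 in shRBM10 (log2 fold change 1.29 ± 0.39, 1.08 without sh-NC replicate 2 and 0.52 with the trend removed). Neither receptor overlapped between the groups. The third was the coreceptor TGFBR3, at a mean count of 40.7 and so under the limit for naming, with 26.3, 4.11 and 28.0 normalized counts in sh-NC against 83.2, 53.7 and 42.3 in shRBM10. Of the 3 other SMADs tested (SMAD1, SMAD5 and SMAD6), 0 passed an unadjusted p of 0.05 by edgeR.

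Regulators of receptors and SMADs numbered 17 tested genes, 5 higher and 0 lower at an unadjusted p under 0.05 in edgeR (15.7% of all genes higher). With the GC trend removed 1 was higher (8.49% of all genes), and without sh-NC replicate 2 also 1 (11.6%). WWP1, a ubiquitin ligase that targets TGFBR1, had 384, 126 and 348 normalized counts in sh-NC against 1391, 982 and 547 in shRBM10, without overlap (log2 fold change 1.76 ± 0.46, 1.32 without sh-NC replicate 2 and 1.04 with the trend removed). ZFYVE9, which presents SMAD2 and SMAD3 to the receptor, had 229, 105 and 237 normalized counts in sh-NC against 653, 455 and 220.0 in shRBM10, with library C inside the sh-NC range (log2 fold change 1.21 ± 0.44, 0.84 without sh-NC replicate 2 and 0.87 with the trend removed). LEMD3, a nuclear envelope protein that binds SMAD2 and SMAD3, had 298, 167 and 286 normalized counts in sh-NC against 666, 507 and 303 in shRBM10 (log2 fold change 0.97 ± 0.36, 0.66 without sh-NC replicate 2 and 0.47 with the trend removed).

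Among 19 transcriptional targets tested, 1 was higher and 1 lower at an unadjusted p under 0.05 in edgeR (15.7% and 8.60% of all genes), and the median log2 fold change was -0.16. With the GC trend removed 3 were higher and 2 lower (8.49% and 9.66%), and without sh-NC replicate 2 these were 2 and 3 (11.6% and 12.7%). CDKN2B, the cell cycle inhibitor p15, had 1172, 564 and 1143 normalized counts in sh-NC against 2210, 2206 and 1855 in shRBM10. All shRBM10 libraries lay above sh-NC (log2 fold change 1.12 ± 0.30, adjusted p = 0.147 in edgeR, and 0.77 both without sh-NC replicate 2 and with the GC trend removed). GADD45B, a stress-response gene, had 640.3, 954 and 620.0 normalized counts in sh-NC against 363, 423 and 534 in shRBM10, without overlap (log2 fold change -0.75 ± 0.27, adjusted p = 0.172 in edgeR, -0.60 without sh-NC replicate 2 and -0.46 with the trend removed).

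**Figure D5:**
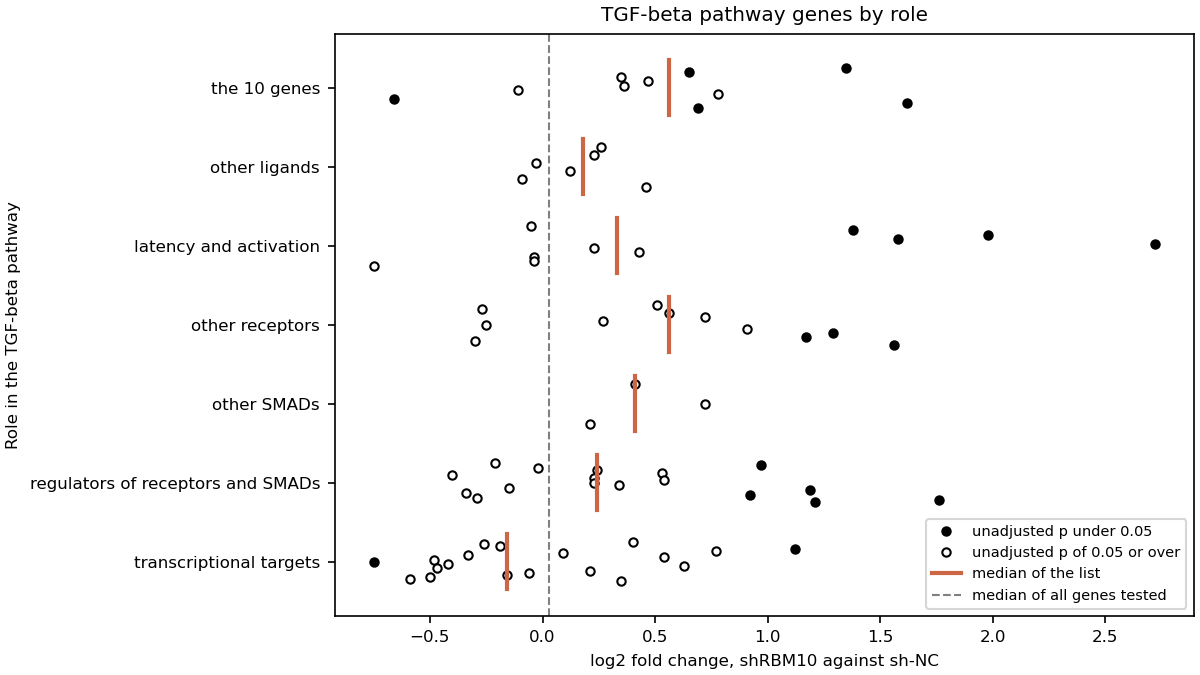
Log2 fold change, shRBM10 against sh-NC, of the 10 genes and of 66 other pathway genes by role; filled points have an unadjusted p under 0.05 in edgeR, orange bars are medians and the dashed line is the median of all genes tested. The median is 0.56 for the 10 genes and the other receptors and -0.16 for the transcriptional targets.

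Genes whose profile over the 6 libraries was most like that of SKIL were UBL3, SIX4 and FUT8 (Pearson's r of 0.999 each, log2 normalized counts) and PRMT9 and ERAP2 (0.998 each), out of 11070 genes with a mean count of at least 50. TGFBR1 and TGFBR2 stood at 0.985 and 0.983, ranks 235 and 283, so that more than 200 genes followed SKIL more closely than either receptor. SMAD4 was at 0.950, TGFB2 at 0.886 and SMAD2 at 0.863, while TGFBI was at -0.798 and TGFB1 at -0.685. These values describe 6 libraries that differ in the GC trend above, and carry no test.

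The deposited transcript table gives estimated counts per RefSeq transcript, and transcript usage, the share of a gene's counts on each of its transcripts, is the readout closest to the splicing function of RBM10. Of 8348 genes tested, 8 (0.0958%) were called at a Simes p adjusted under 0.05 by edgeR's diffSpliceDGE, and 229 (2.74%) had an unadjusted p under 0.05. Of the 10 TGF-beta pathway genes 7 could be tested, 0 were called and 1, SMAD3, had an unadjusted p under 0.05. TGFBR1, SMAD4 and TGFBI had 1 transcript kept each.

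TGFBR2 divided between forms that differ by 1 coding exon near the 5′ end of the coding sequence. NM_001024847 holds an exon of 75 bases, 25 residues in frame, that NM_003242 lacks (chr3:30623199-30623273, plus strand, GRCh38, exon 2 of 8, coding). It is printed because it is the stretch by which the main receptor forms differ.
TGFBR2 exon 2: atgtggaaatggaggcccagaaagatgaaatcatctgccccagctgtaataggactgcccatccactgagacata
NM_003242, without the exon, took 62.4%, 52.4% and 52.0% of the TGFBR2 counts in sh-NC against 71.2%, 56.7% and 68.9% in shRBM10. NM_001024847 took 37.2%, 24.9% and 28.7% in sh-NC against 28.8%, 23.3% and 22.7% in shRBM10. The ranges overlapped for both, and the remaining transcript, XM_011534045, varied from 0% to 22.7%. Usage of TGFBR2 did not pass the adjusted threshold, with a Simes p of 0.728 in edgeR.

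SKIL was mostly NM_005414, with 79.4%, 94.6% and 83.2% of its counts in sh-NC against 77.8%, 75.7% and 60.8% in shRBM10. A predicted transcript, XM_005247721, took 0%, 0% and 7.76% in sh-NC against 6.92%, 14.8% and 32.1% in shRBM10. The groups overlapped for this transcript at library A, and SKIL had a Simes p of 0.325 in edgeR. That p was 0.00286 without sh-NC replicate 3 and between 0.0698 and 0.584 in the other alternatives in which it was tested.

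SMAD3 was divided between NM_005902, with 67.4%, 82.4% and 68.8% in sh-NC against 65.9%, 74.9% and 76.4% in shRBM10, and NM_001145102, whose coding sequence is shorter (960 against 1275 bases). NM_001145102 took 31.5%, 15.8% and 27.3% in sh-NC against 33.5%, 25.1% and 21.5% in shRBM10. The small Simes p of SMAD3 (0.00387 in edgeR, adjusted p = 0.383) came from XM_011521559, picked out after its values were seen. It had 22, 14 and 25 counts in sh-NC against 0 in each shRBM10 library, which is 1.03% to 1.83% of SMAD3 in sh-NC, and with a filter that removed it the p of SMAD3 was 0.992. Leaving out 1 library gave 0.0195 to 0.238.

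SMAD2 was spread over 11 listed transcripts. XM_005258259 held 41.8% ± 2.12 of its counts in sh-NC against 47.2% ± 10.5 in shRBM10, NM_005901 28.5% ± 2.18 and 20.9% ± 7.73, and XM_017025745 11.1% ± 2.92 and 13.7% ± 5.68 (SD, n = 3 each). SMAD7 was divided between NM_001190822 (45.7% ± 6.76 in sh-NC against 49.9% ± 5.80 in shRBM10), NM_005904 (34.0% ± 2.11 and 36.7% ± 7.69) and NM_001190823 (12.6% ± 6.25 and 5.48% ± 5.97). NM_005904 encodes the full inhibitory SMAD in 1278 coding bases, against 633 in NM_001190822. TGFB1 was 91.2% ± 1.01 NM_000660 in sh-NC against 90.1% ± 0.986 in shRBM10. TGFB2 was 91.4% ± 8.47 NM_003238 in sh-NC against 86.4% ± 4.76 in shRBM10, the rest being NM_001135599 with 1 exon more. TGFBR1 was 88.0% to 100% NM_004612 in sh-NC against 85.4% to 97.0% in shRBM10. The Simes p of SMAD2, SMAD7, TGFB1 and TGFB2 lay between 0.858 and 0.982 in edgeR. Since 41.1% of the transcript counts are whole numbers, these shares rest on estimates of how reads common to several transcripts divide, and their error beyond the spread between libraries is unknown.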

How the data were processed

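RNA-seq of PC9 sh-NC and shRBM10 samples was performed by BGI-Tech. The authors deposited estimated counts per gene and per RefSeq transcript, and TPM, which is scaled per transcript length and library by the authors. The aligner and the counting tool are not given in the sources used here, and the submitters' processing notes name the build hg38. Of the deposited estimated gene counts, 87.5% were whole numbers (within 1e-06).

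Counts were rounded and tested with edgeR 4.0.16 (quasi-likelihood test, TMM, filterByExpr, no covariate; R 4.3.3, limma 3.58.1), with Benjamini-Hochberg adjustment over 12620 genes. A standard error is the size of the log2 fold change over the root of F. Transcript usage was tested with diffSpliceDGE. GC content was that of the longest GENCODE 29 transcript (12559 genes, 99.5%), and each library's trend on it (lowess span 0.3) was removed through offsets. Alternatives were DESeq2 1.42.0, limma-voom, other normalizations and filters, and leaving out each library; GC removal together with a left-out library was added after seeing the data. The steps were also run on simulated counts. These gave all genes the same spread and held no library like sh-NC replicate 2, so they do not show how the steps handle these libraries.

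Coordinates are from GENCODE 29 (GRCh38) and promoters from RefSeq, matched by symbol for 10 of 10 genes. Named pathway genes are, per list and direction, up to 3 with the smallest unadjusted p under 0.05 and a mean count of at least 50; transcripts named have at least 10% of a gene's counts in either group. The 10 genes and all lists were chosen with earlier results of these data known. Left out were 8 columns of group means per table and, of columns per sample for other measures, 14 in the gene table and 18 in the transcript table. Errors given are the spread between libraries, and intervals of counting error are not given.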

Additional observations from a re-analysis of the deposited data

How the results depend on the processing

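Over 20 alternatives SKIL, TGFBR1, TGFBR2, SMAD3, SMAD7 and TGFBI kept the direction of their log2 fold change. The 10 genes held 0 calls in edgeR and limma-voom and 2 in DESeq2, with log2 fold changes of 1.32 for SKIL and 1.58 for TGFBR1. Genes called over the whole table numbered 2, and 0 with library size only, 573 in DESeq2, 31 without the filter, 0 to 23 with 1 library left out, and 0 to 264 with 1 left out and the GC trend removed. RBM10 was between -1.43 and -1.17 with 1 library left out and passed the threshold in DESeq2 (-1.26), without sh-NC replicate 2 (-1.42) and without it with the trend removed (-1.07). The 10 genes with an unadjusted p under 0.05 numbered 5, and 3 with library size only, 2 to 5 with 1 library left out, and 0 to 5 with the trend also removed; other pathway genes numbered 14, then 9, 6 to 21 and 6 to 20. Library size only set the median of all genes to 0.16 against 0.03, and the share of higher genes among those with an unadjusted p under 0.05 was 64.7%, against 46.8% with the trend removed and 47.8% without sh-NC replicate 2.

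TGFB1 was -0.42 to 0.04 with 1 library left out, positive with library size only (0.02) and without library A (0.04), and 0.21 with the trend removed. In that last setting, leaving out sh-NC replicates 1, 2 and 3 and libraries A, B and C in turn gave 0.24, 0.23, 0.14, 0.25, 0.23 and 0.13 for TGFB1, and -0.12, -0.19, -0.06, -0.09, -0.02 and -0.29 for SMAD4 (-0.12 with all). SMAD2 was -0.06 with the trend removed. Leaving out the libraries in the same order gave -0.11, 0.09, -0.16, -0.05, -0.07 and -0.07 for SMAD2, so that it was positive without sh-NC replicate 2. With the trend removed, TGFB2 was -0.21 when sh-NC replicate 2 was also left out and -0.03 when library B was. Genes with called usage numbered 8, and 0 with at least 10 counts in every library, 0 in limma-voom and 5 to 12 with 1 library left out. The causes were not tested. No paired analysis was possible because the columns of shRBM10 libraries B and C carry no replicate number, so the planned replicate block was not run. With 3 libraries a group, an exact permutation test cannot go below 0.1.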

Other observations

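The other pathway genes below were picked out after their values were seen. Without sh-NC replicate 2, 1 of the 66 tested was called by edgeR (THBS1), against 0.180% of all genes. With the GC trend also removed 5 were called, ITGB6, LRRC32 and ID2 higher and THBS1 and SNAI2 lower, against 2.06% of all genes. THBS1, thrombospondin-1, which can release TGF-beta from its latent complex, had 3610, 982 and 3958 normalized counts in sh-NC against 1691, 1603 and 1782 in shRBM10. The shRBM10 libraries lay between sh-NC replicate 2 and the other sh-NC libraries, and the log2 fold change of THBS1 was -0.75 ± 0.43 (edgeR, adjusted p = 0.282). Without sh-NC replicate 2 it was -1.24 (edgeR, adjusted p = 0.0487), and -1.42 with the GC trend also removed (edgeR, adjusted p = 0.00970). SNAI2, a repressor of epithelial genes, had 298, 260.2 and 282 normalized counts in sh-NC against 203, 199 and 192 in shRBM10, without overlap, and a log2 fold change of -0.50 ± 0.25 (edgeR, adjusted p = 0.242). With the GC trend removed SNAI2 was at -1.05 ± 0.24 (edgeR, adjusted p = 0.136), and at -1.02 without sh-NC replicate 2 as well (edgeR, adjusted p = 0.0424). ITGB6 and LRRC32 had 1.02 and 3.76 in that last fit (edgeR, adjusted p = 0.0144 and 0.0324). ID2, an inhibitor of DNA binding, was low, with 9.98, 27.4 and 8.12 normalized counts in sh-NC against 20.5, 23.0 and 24.0 in shRBM10. Its log2 fold change was 0.63 as deposited, 1.22 without sh-NC replicate 2 and 1.45 with the GC trend also removed (edgeR, adjusted p = 0.0351 in that last fit).

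JUNB, an AP-1 subunit induced by TGF-beta, overlapped between the groups as deposited (log2 fold change 0.21, and 0.20 without sh-NC replicate 2). With the GC trend removed JUNB had 3492, 3749 and 3643 in sh-NC against 5812, 4474 and 5638 in shRBM10 (log2 fold change 0.55 ± 0.16, edgeR, adjusted p = 0.188). COL1A1, a fibrillar collagen chain, also overlapped as deposited (log2 fold change 0.77, and 0.37 without sh-NC replicate 2). It stood apart after removal of the trend, with 94.2, 32.5 and 88.0 in sh-NC against 129, 151 and 163 in shRBM10 (log2 fold change 1.03 ± 0.37, edgeR, adjusted p = 0.237). With the trend removed, 14.3% of all genes were higher in shRBM10 without overlap. CCN2, a target of the pathway in many cell types, had a log2 fold change of -0.26 ± 0.37, of -0.59 without sh-NC replicate 2 and of -0.18 with the trend removed. Its groups overlapped as deposited and with the trend removed.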
